A study of Homo sapiens with 4 samples.

Results

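The ISG15 conjugation system of UM1 cells was described at the messenger RNA level in normal and high glucose. Its 6 genes are ISG15, the modifier itself, UBA7, UBE2L6, HERC5 and HERC6, which attach it or belong to the family that does, and USP18, which removes it. They were chosen by name, with their differences between the groups already known from these same arrays, and 5 of them are among the 18144 genes with a probe set of their own, while USP18 was read by a shared one. Their values are therefore given as a description, without a test, and nothing is supported with them. UM1 is a line of tongue squamous carcinoma cells, so the results describe 1 line in culture. By the series description it grew for 7 days with glucose at 5.6 mM, titled low glucose in the labels and named normal glucose here, or at 16.7 mM, named high glucose. Total RNA went onto 4 Affymetrix arrays, with 2 biological replicates for each glucose level as the labels have it, and neither another agent nor an osmotic control was among them. Levels are log2 values per probe set, normalised between arrays by the authors, and differences are high minus normal glucose.

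ISG15 is a small protein built like a pair of linked ubiquitins, and it is among the genes most readily switched on by type I interferon. Like ubiquitin, it is joined to other proteins in a chain of steps. An activating enzyme (E1) loads it, a conjugating enzyme (E2) carries it, and a ligase (E3) hands it to the substrate, many of them proteins that are being newly made. Interferon induces the enzymes of this chain together with the modifier. Free ISG15 can also leave the cell and act on immune cells as a cytokine. USP18 takes ISG15 off its substrates and, apart from that activity, binds the interferon receptor subunit IFNAR2 and damps signalling. Human ISG15 that is free inside the cell stabilises USP18.

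The 4 arrays were alike in scale, with medians from 5.014 to 5.068 and 25th percentiles from 3.261 to 3.319. The correlation over all probe sets, which do not vary independently, was 0.997 between the normal glucose arrays, 0.996 between the high glucose arrays and about 0.946 across the groups. The difference between the 3' and 5' probe sets of beta-actin was 0.713 and 0.74 in normal glucose and 0.349 and 0.417 in high glucose. That of GAPDH was 0.24 and 0.135 in normal and 0.08 and 0.123 in high glucose, and the part of these values in the results was not tested. Leukocyte markers, measured as another cell type that carries much of this system, stayed dim. None of 16 measured markers was called in either direction, 12 of them lay under the median of every array, and their summed linear level was 364 to 395 in normal and 379 to 385 in high glucose. Squamous keratinocyte markers, those of the labelled cell type, had 13 of 13 measured genes called higher in high glucose, out of 18 listed. The shares of all genes called were 15.5% higher and 22.2% lower. Differences of the 13 ranged from 0.51, for CDH1, to 4.95, and KRT13 was dim, at 3.17 in normal and 3.76 in high glucose. With the mean or the median of all probe sets of a gene, 12 were called higher. The summed level of the 13 went from 8352 to 8591 up to 57535 to 58717. Of 12 fibroblast markers, COL1A1, COL1A2, COL3A1 and FAP were higher and 9 lay under the median of every array, among them PDGFRA, DCN, LUM and THY1. The summed level of the 12 was 210 to 230 in normal and 12377 to 12453 in high glucose, of which COL3A1 alone made 11187 to 11284. Without COL3A1 it was 125 to 143 and 1169 to 1190. The part of these cell type markers in the results was not tested.

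ISG15, the modifier, was far higher in high glucose. Its probe set, 11716895_s_at, had levels of 9.23 and 9.19 in the normal glucose arrays and 12.97 and 12.99 in the high glucose arrays. Both normal arrays were low and both high arrays were high, with no overlap and almost no spread within a group. The mean difference was 3.78 on the log2 scale (SE 0.083, n = 2 arrays per group), or 13.7-fold. On each high glucose array its probe set stood at the 99.7th percentile of all probe sets, against the 92.8th and 92.6th in normal glucose. A total of 101 genes, 0.557% of those tested, rose by more. In RNA of a whole culture, more cells with the transcript and more transcript per cell cannot be told apart.

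UBA7, the activating enzyme specific to ISG15, showed a smaller difference. Its probe set, 11718608_at, gave 5.14 and 5.35 in normal glucose and 6.58 and 6.67 in high glucose. The groups did not overlap, and the lowest high array lay 1.23 above the highest normal array. The difference was 1.38 (SE 0.107), or 2.6-fold. Its normal glucose levels were close to the middle of the arrays, at the 51.4th and 53.8th percentiles. UBE2L6, the conjugating enzyme that takes ISG15 from UBA7 and can also carry ubiquitin, was read by 11721994_s_at at 7.2 and 7.19 in normal and 9.53 and 9.56 in high glucose. The arrays of a group differed by only 0.014 in normal and 0.038 in high glucose. UBE2L6 differed by 2.35 (SE 0.083), or 5.09-fold.

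HERC5 and HERC6 are neighbouring genes of 1 ligase family. HERC5 is the main ISG15 ligase in human cells, whereas HERC6 is the one that does this work in mouse. HERC5 was read by 11755374_a_at at 7.39 and 7.33 in normal glucose and 8.65 and 8.79 in high glucose. Both high arrays were above both normal arrays, by at least 1.26. Its difference of 1.36 (SE 0.093), or 2.56-fold, was the smallest of the 6. HERC6 was read by 11723128_a_at at 5.41 and 5.22 in normal and 8.92 and 8.85 in high glucose. It differed by 3.57 (SE 0.101), or 11.8-fold, with a gap of 3.43 between the groups.

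USP18 was read only through a probe set whose annotation names 5 genes, USP18, FAM247A, FAM247C, FAM247D and LOC105379548, so it stands outside the 18144 genes and its transcripts cannot be told apart from those of the others. This probe set, 11721349_s_at, gave 3.48 and 3.23 in normal and 7.13 and 6.95 in high glucose. Both normal arrays lay near the 25th percentile of all probe sets, where the array reads little above background, and both high arrays stood at percentiles 75.2 and 72.8. The difference was 3.68 (SE 0.125, from the fit over all probe sets), or 12.9-fold. USP41P, a pseudogene related to USP18 and read by a probe set annotated to it alone, gave 2.95 and 2.78 against 2.92 and 3.06. Its difference was 0.12 (adjusted p = 0.461, limma over all probe sets).

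**Figure D1:**
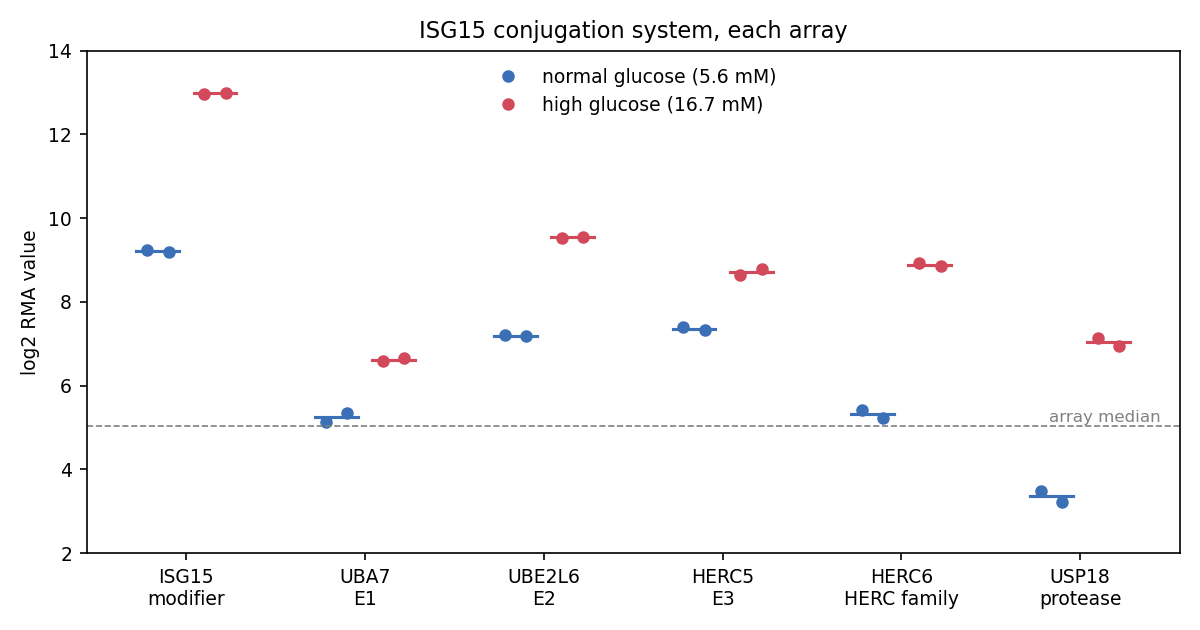
Log2 level of each of the 6 genes on each array, with normal glucose in blue and high glucose in red, n = 2 arrays per group. Points are arrays, short lines are group means and the dashed line is the array median, and the arrays of a group lie within 0.248 of each other for each gene.

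The members fell into larger and smaller differences. ISG15 and HERC6 differed by 3.78 and 3.57, which are 0.21 apart (SE 0.131, a gap of 1.6 SE). USP18, at 3.68, was not placed in this order, since its normal glucose levels near background can understate its difference and its probe set names other genes. UBE2L6 came 1.22 (SE 0.131) below HERC6, and UBA7 another 0.97 (SE 0.135) below UBE2L6. UBA7 and HERC5 were 0.02 apart (SE 0.142). The modifier stood at the upper end and the E1 and the human ligase at the lower end, with the E2 between them. The median difference of the 6 was 2.96, or 2.35 without USP18, against -0.033 for all genes tested. In all, 5 of the 5 members with a probe set of their own were called higher at an adjusted p under 0.05 (limma), in a background where 15.5% of genes were called higher and 22.2% lower. Both high arrays were above both normal arrays for 6 of 6 members, as for 27.5% of all genes. These counts belong to the contrast that the choice of members used, and nothing was read from them. With 2 arrays against 2, an exact two-sided permutation test of 1 gene cannot go below p = 0.333, so the calls of other genes given here depend on the variance that limma pools over genes.

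Promoters offered a feature that the choice of members did not use. Interferon acts on many genes through the interferon-stimulated response element, whose core was searched as GAAANNGAAA on either strand in windows from 250 bases before to 50 bases after the gene start (RefSeq, GRCh38.p14). Windows were found for 4 of the 6 members, with 2 for UBE2L6, and USP18 and UBA7 had none in the table. The windows of ISG15 (chr1:1013247-1013546, + strand), HERC5 (chr4:88456869-88457168, + strand) and HERC6 (chr4:88378602-88378901, + strand) are printed to set the modifier beside the ligase pair, with matches in capitals.
ISG15: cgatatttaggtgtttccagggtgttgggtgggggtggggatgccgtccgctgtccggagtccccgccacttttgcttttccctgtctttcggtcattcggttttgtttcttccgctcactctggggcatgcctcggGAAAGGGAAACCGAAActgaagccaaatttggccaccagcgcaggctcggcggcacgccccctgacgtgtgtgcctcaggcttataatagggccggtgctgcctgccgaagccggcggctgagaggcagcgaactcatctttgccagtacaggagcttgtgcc
HERC5: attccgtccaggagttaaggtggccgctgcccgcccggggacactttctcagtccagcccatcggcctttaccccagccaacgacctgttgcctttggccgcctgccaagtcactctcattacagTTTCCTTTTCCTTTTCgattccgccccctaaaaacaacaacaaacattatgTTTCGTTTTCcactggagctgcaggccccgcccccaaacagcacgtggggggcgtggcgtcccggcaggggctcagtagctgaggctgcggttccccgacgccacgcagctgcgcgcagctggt
HERC6: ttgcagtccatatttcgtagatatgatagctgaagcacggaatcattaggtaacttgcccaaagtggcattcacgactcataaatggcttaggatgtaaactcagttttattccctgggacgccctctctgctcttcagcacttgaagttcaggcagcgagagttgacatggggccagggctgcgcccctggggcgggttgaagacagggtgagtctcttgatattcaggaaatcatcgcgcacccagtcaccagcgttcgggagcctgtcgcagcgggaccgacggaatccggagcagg

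ISG15 had 2 overlapping matches on the forward strand, from -113 to -104 and from -107 to -98 relative to the start. HERC5 had 3 on the reverse strand, of which those from -125 to -116 and from -119 to -110 overlap and the other lies from -74 to -65. The window of HERC6, the member with the larger difference of the ligase pair, held no match, and neither did those of UBE2L6. These letters were present in 2 of the 5 member windows, in 3.57% of all 35116 windows and in 26 of 39 windows (66.7%) of the other classical type I interferon-induced genes. The core of the gamma-activated site, TTCNNNGAA, was in 0 of 5 member windows, in 7.66% of all windows and in 12 of 39 windows (30.8%) of those type I genes. A match is a string of letters and not a bound site, and a window without one says nothing of the factor.

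**Figure D2:**
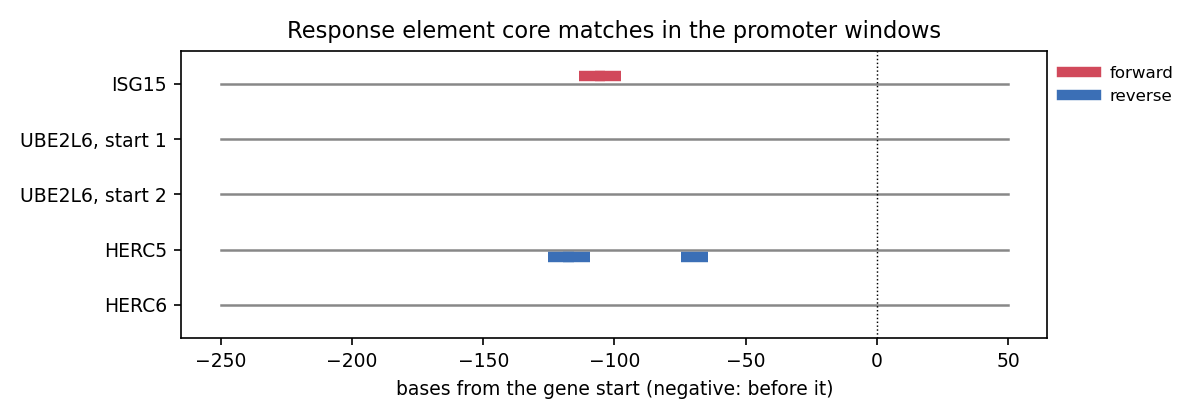
Response element core matches in the 5 promoter windows of the members, by distance in bases from the gene start, with forward matches in red above the line and reverse matches in blue below it. ISG15 and HERC5 hold matches before the start, and the windows of HERC6 and UBE2L6 hold none.

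Measured coding genes beside the members on the chromosomes were also compared. The comparison was chosen after the members' values were seen and took the 2 nearest on each side. Of 20 such genes that are not members, 6 were called higher, 2 lower and 12 not, with differences from -0.49 to 1.87, where 15.5% of all genes were called higher and 22.2% lower. Beside ISG15, HES4, a transcriptional repressor, and AGRN, the gene of agrin, were higher by 1.2 and 0.73 (limma, adjusted p = 0.000177 and 0.00108), while RNF223 was at -0.46. The call of RNF223 (adjusted p = 0.0196, limma) ended without normal glucose replicate 1 (0.0793), without normal glucose replicate 2 (0.124) and without high glucose replicate 2 (0.101). Next to UBA7, TRAIP, a ubiquitin ligase of DNA replication, and INKA1 were higher by 1.4 and 0.99. With the mean or the median of its probe sets, TRAIP was higher by 0.717 and still called. PPM1K, a mitochondrial phosphatase beside HERC6, was higher by 1.51 (limma, adjusted p = 0.00246), but by 0.218 (adjusted p = 0.404) when the median of its probe sets was taken. MICAL3, in the region of USP18, likewise went from 1.87 to 0.234 (limma, adjusted p = 0.2). On chromosome 11, TIMM10 was lower by 0.49 on the log2 scale and SERPING1, the C1 inhibitor beside UBE2L6, was at -0.02 (limma, adjusted p = 0.927).

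**Figure D3:**
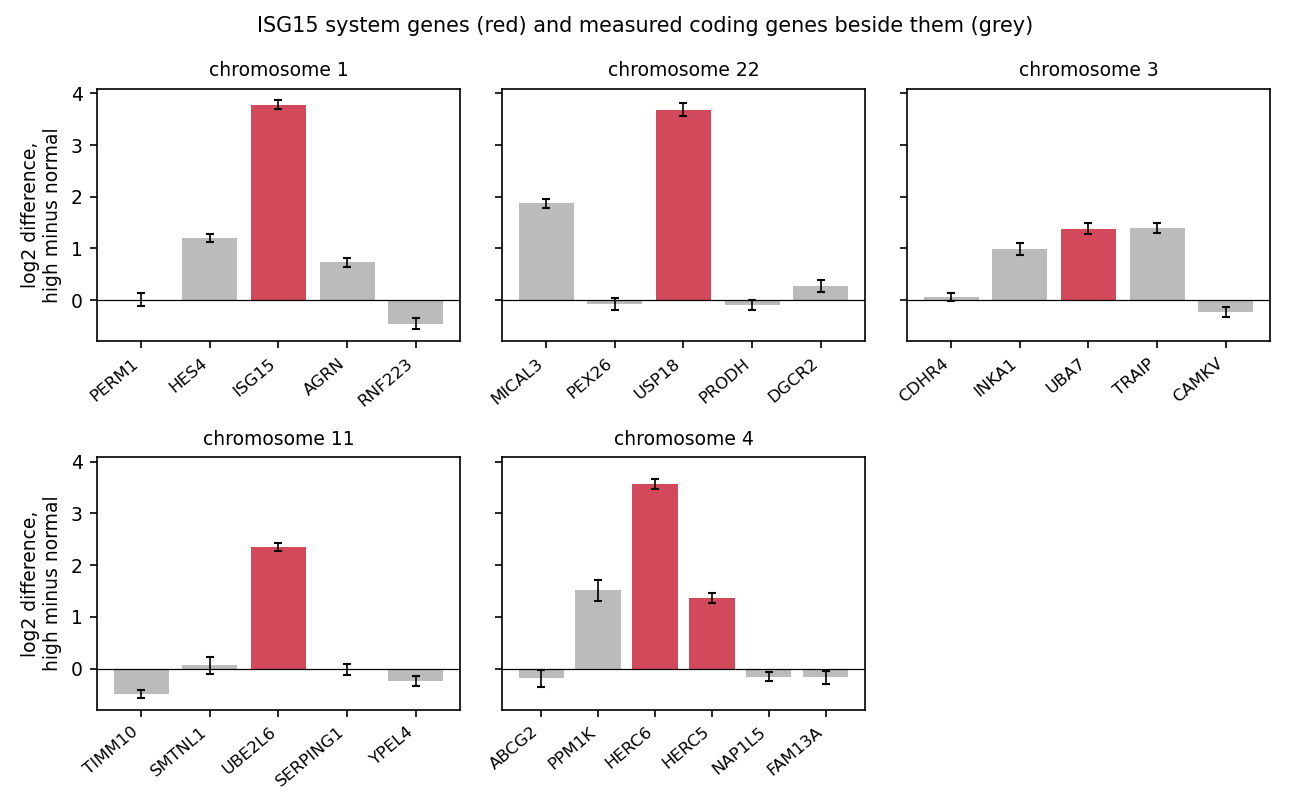
Log2 difference, high minus normal glucose, of the members in red and of the 2 nearest measured coding genes on each side in grey, in chromosome order, with SE from limma, n = 2 arrays per group. ISG15, USP18, UBE2L6 and HERC6 are taller than the grey genes of their panels, while UBA7 stands at 1.38 with TRAIP at 1.4 and HERC5 at 1.36 with PPM1K at 1.51.

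Other genes of the interferon pathway set these values in context. Type I interferon binds IFNAR1 and IFNAR2, whose kinases assemble a factor with IRF9 that enters the nucleus. Of 12 measured genes for receptors, kinases, IRF9 and the feedback inhibitors, 7 were called higher, 2 lower and 3 in neither direction. Over all genes, 15.5% were called higher and 22.2% lower. IRF9 had levels of 8.72 and 8.71 in normal and 10.37 and 10.3 in high glucose, a difference of 1.62 (SE 0.085, limma, adjusted p = 6.1e-05), or 3.07-fold. SOCS1 and SOCS3, inhibitors of cytokine signalling, were 2.56-fold and 1.92-fold higher (limma, adjusted p = 0.00135 and 0.00112). The kinases of this list went in both directions. JAK2 was lower by a factor of 2.43, JAK1 was called lower at -0.63 and TYK2 higher at 0.42 on the log2 scale. IFNAR1 was higher by 0.46 (limma, adjusted p = 0.00747), a call lost without normal glucose replicate 1 (0.0524) and without high glucose replicate 1 (0.0538). IFNAR2 was higher by 0.86 (limma, adjusted p = 0.00104), but by 0.081 (adjusted p = 0.737) without probe sets whose names end in _x_at, which can bind other transcripts. Without such probe sets the call of IFNAR1 was lost as well, at 0.313 (limma, adjusted p = 0.0533).

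Interferon genes themselves were dim. Of 17 measured, 1 was higher and 16 did not pass, and 16 lay under the median of every array. IFNB1, the gene of interferon beta, was at 3.26 and 3.2 in normal and 3.17 and 3.07 in high glucose, near or under the 25th percentile of the arrays (difference -0.11, limma, adjusted p = 0.41). The higher gene was IFNE, an interferon made by epithelia, at 5.29 and 5.08 against 5.9 and 6.12, or 1.77-fold (limma, adjusted p = 0.00302).

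Classical type I interferon-induced genes apart from the members were higher almost without exception. Of 33 measured, 32 were called higher, 0 lower and 1 did not pass, where 15.5% of all genes were called higher. Among the 33, 30 were over 2-fold, with a median difference of 2.87. MX2 and MX1, GTPases that block viruses, were 65.3-fold and 29.4-fold higher, OAS1, which makes the activator of RNase L, 51.5-fold, and IFI44L 35.6-fold. Of 20 genes that respond more to interferon gamma, 13 were higher, 0 lower and 7 did not pass, with a median of 0.98. GBP1, a guanylate-binding protein, was 55.6-fold higher, and CXCL10, a chemokine for T cells, 36.4-fold from normal glucose levels under the 25th percentile. The 7 that did not pass were CXCL9, IRF1, CIITA, HLA-DRA, HLA-DMA, CD74 and PSMB10, with differences from -0.171 to 0.422. The differences of ISG15, USP18 and HERC6 lay above the median of the 33 type I genes, and those of UBE2L6, UBA7 and HERC5 below it.

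**Figure D4:**
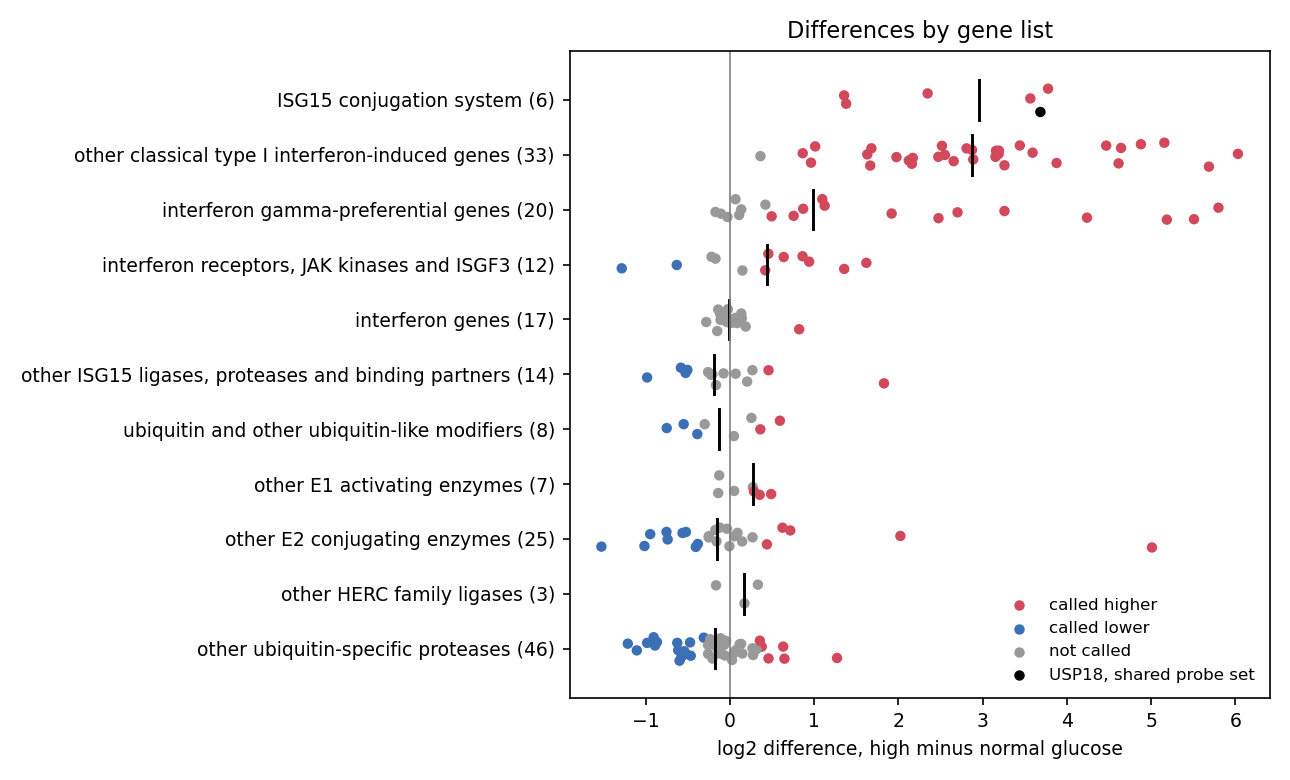
Log2 difference, high minus normal glucose, of each measured gene of the named lists, with 1 point per gene, red where called higher, blue where called lower, grey where not called and black for USP18, a vertical bar at each list's median and the number measured in parentheses. The members lie from 1.36 to 3.78, and the 17 interferon genes lie from -0.28 to 0.82.

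Other proteins described to bind or process ISG15 did not move with the members as a group. Of 14, 2 were called higher, 4 lower and 8 in neither direction, with a median of -0.19. These counts are near the shares over all genes, 15.5% higher and 22.2% lower. SKP2, a subunit of a ubiquitin ligase, was 3.55-fold higher (limma, adjusted p = 6.29e-05). USP16, a protease that also accepts ISG15, NUB1, USP24 and the ligase ARIH1 were lower by 0.98, 0.58, 0.52 and 0.5 on the log2 scale. The call of NUB1 was lost with the mean of its probe sets (-0.302, limma, adjusted p = 0.0629) and with their median (-0.287, adjusted p = 0.158). TRIM25, which acts as an ISG15 ligase for some substrates, was at -0.16 (limma, adjusted p = 0.206). The number called higher was 1 without normal glucose replicate 2 and without either high glucose array.

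Enzymes of the wider ubiquitin system, the families of UBA7, UBE2L6, HERC5 and USP18, showed mixed and mostly small differences. Beside the counts given here, 15.5% of all genes were called higher and 22.2% lower. Of 7 other E1 enzymes, 3 were higher and 4 did not pass. UBA6 was 1.4-fold higher (limma, adjusted p = 0.0067), a call lost without high glucose replicate 2 (0.0515). UBA1, the main ubiquitin E1, was 1.28-fold higher (limma, adjusted p = 0.0358) and SAE1, an E1 subunit for SUMO, differed by 0.29 (adjusted p = 0.045). Leaving out any 1 of the 4 arrays ended the call of UBA1 (limma, adjusted p = 0.0603 to 0.167) and that of SAE1 (0.0941 to 0.169). Of 25 other E2 enzymes, 5 were higher, 9 lower and 11 did not pass. UBE2C, which acts in mitosis, was the exception in size, at 5.75 and 5.86 in normal and 10.93 and 10.69 in high glucose, or 32.2-fold, and UBE2T was 4.07-fold higher. UBE2J1 and UBE2Q1 were lower by factors of 2.88 and 2.02.

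Among the 3 measured other HERC ligases, none passed the test, with differences from -0.16 to 0.33. HERC4 was at -0.16 (limma, adjusted p = 0.202). HERC3, a relative that shares its probe sets with PIGY-DT, gave 0.14, 0.22 and -0.06 on 3 probe sets. Of 46 other ubiquitin-specific proteases, 6 were higher, 16 lower and 24 did not pass, with a median of -0.17. The shares over all genes were 15.5% higher and 22.2% lower. USP11 was 2.41-fold higher, and USP36 and USP53 were lower by factors of 2.32 and 2.15. Without single arrays, 3 to 4 of these proteases were called higher and 10 to 14 lower. The count of 10 came without normal glucose replicate 2.

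Of 8 measured genes for ubiquitin and the other ubiquitin-like modifiers, 2 were higher, 3 lower and 3 did not pass. Their median was -0.12, with differences from -0.75 to 0.59, and the shares over all genes were 15.5% higher and 22.2% lower. FAU, which fuses a ubiquitin-like protein to a ribosomal one, was lower by 0.75 and UFM1 by 0.55, and SUMO2 was higher by 0.59. UBB, which encodes ubiquitin, was at -0.39. The calls of SUMO2, UFM1 and UBB were each lost without 1 array or another, with 0 to 1 modifiers then called higher and 1 to 2 lower. SUMO2 was lost without normal glucose replicate 1 (limma, adjusted p = 0.0625) and without high glucose replicate 2 (0.0633). UFM1 was lost without normal glucose replicate 2 and without either high glucose array (limma, adjusted p = 0.0558 to 0.0826), and UBB without any 1 of the 4 (0.0608 to 0.0824).

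By pattern over the 4 arrays, the genes closest to ISG15 were TRIM22, CAV1, SYNC, MATN2 and TCF19. Their Euclidean distances to ISG15 in log2 values centred on each gene's mean were 0.073, 0.097, 0.101, 0.122 and 0.141, and HERC6 came at rank 25 with 0.244. Closest to HERC5 were CLIC3, SERPINB5, PRXL2A, WDFY2 and MTMR11, at 0.047 to 0.067. With 4 arrays in 2 groups, this distance reads little more than the size of the difference between the groups.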

How the data were processed

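RNA of UM1 cells in normal and high glucose was measured on 4 arrays, 2 per group. The values deposited by the authors are on a log2 scale, 1 per probe set and array, made with GCOS and RMA (background correction, normalization between arrays, summary of probes). For both tools the version was not given in the sources used. The U133 Plus 2.0 array is the one that the methods name, but all 49395 identifiers follow the PrimeView design, and its annotation was taken. It ties 45076 probe sets to 1 gene, 1744 to several and 2473 to none listed, and 102 are controls. Symbols were updated through the RefSeq gene table of GRCh38.p14.

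Each of 18144 genes was read by its brightest probe set annotated to it alone, and the groups were compared by linear models with moderated variances (limma 3.58.1, R 4.3.3, Benjamini-Hochberg over all genes, threshold 0.05). Errors are standard errors of the log2 difference. Python 3.11.15 was used for tables (pandas 2.3.3, numpy 2.4.6) and figures (matplotlib 3.10.9). The procedure was also run on simulated data, but with far fewer changed genes than were called here, so that run does not vouch for these calls. Precision is limited by the number of arrays, and a change can be understated where a probe set is dim.

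The members and the lists were chosen with earlier results of these data known. Named genes are the members, up to 4 called genes per list with the largest difference, the closest relatives of the members, and the 5 genes nearest in pattern to ISG15 and to HERC5. Alternatives were other summaries of probe sets, probe sets shared between genes, those ending in _x_at left out, a filter and a floor at the 25th percentile, quantile normalization, median centring, limma-trend, the methods' t-test and thresholds (fold above 1.5 or below 0.67, unadjusted p under 0.05), the replicate number as a block, each probe set alone, and each array left out. Some genes of these lists are not analysed here.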

Additional observations from a re-analysis of the deposited data

How the results depend on the processing

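Each of the 5 members with its own probe set was called higher under all 17 alternatives, and USP18 kept its direction in the 12 that were run for it. The members were chosen with this contrast known, so these calls are a description and nothing is supported with them. By limma, 15.5% of all genes were called higher. Over the 17, the log2 difference of ISG15 ranged from 3.709 to 3.883, of HERC6 from 3.472 to 3.659 and of UBE2L6 from 2.28 to 2.418. That of UBA7 ranged from 1.273 to 1.487 and of HERC5 from 1.286 to 1.45. Over its 12, USP18 ranged from 3.561 to 3.808. Counts over all genes moved more. Against 2817 higher and 4027 lower genes by limma, the methods' t-test after Benjamini-Hochberg adjustment called 1349 higher and 1669 lower, the methods' thresholds 1933 and 2436, and probe sets tested separately 7449 and 10068. Leaving out 1 array gave 2063 to 2113 higher and 2718 to 2845 lower. The replicate block gave 2538 and 3600, but the replicate numbers share only a number, since the deviations of same-numbered arrays correlated at 0.005, and no member lost its call. Near 0, HERC4 turned to 0.004 with the median of its probe sets, IFNB1 to 0.002 with the floor, and SERPING1 to 0.002 with the floor. Leaving out 1 array, SERPING1 ranged from -0.088 to 0.054, with 0.045 without normal glucose replicate 1 and 0.054 without high glucose replicate 1. The cause was not tested. Counting each other gene or list once per alternative, 1641 values stayed on their side of the threshold or, for list counts, within 1.5 times the count by limma, 63 genes' calls were lost and 48 list counts moved by more than that.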

Other observations

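The genes of some proteins described as substrates of ISG15 were also higher. Of 17 measured, 9 were higher, 3 lower and 5 did not pass (limma over all genes), with a median log2 difference of 0.67. Of all genes, 15.5% were called higher and 22.2% lower. The 3 lower ones were PPM1B, TSG101 and BECN1, at -0.921, -0.87 and -0.341. IRF3, UBE2N, UBE2E2, CHMP5 and PARK7 did not pass. IFIT1, which binds foreign RNA, was at 7.66 and 7.6 in normal and 12.21 and 12.28 in high glucose, or 24.5-fold. RIGI and IFIH1, sensors of viral RNA, were higher by 3.98 and 3.33 on the log2 scale, and MX1, 29.4-fold higher, stands on this list as well as among the interferon-induced genes. MX1 and IFIT1 are counted on both lists, which are not separate evidence. The number called lower was 2 without any 1 of the 4 arrays. The arrays measure messenger RNA and not conjugated ISG15.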
